A study of Mus musculus with 4 samples.

Results

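The 7 genes described here were chosen because MIST1-null cells differed from wild-type cells by over 2-fold the same way in both cell types measured. They were Polr2j, Gdf9, Cdo1, Pik3r5, Tmem19 and Aldoc, which read lower without MIST1, and Stox2, which read higher. All 7 were found among the 19938 genes of the arrays. The 2 genotype differences chose them, that is, the genes were selected on those values, which are given as a description and support nothing by themselves. RNA came from mucous neck cells and zymogenic (chief) cells of the adult mouse stomach, cut from tissue sections by laser capture and read on Affymetrix Mouse Gene 1.0ST arrays. The 4 groups were wild-type neck, MIST1 knockout neck, wild-type zymogenic and MIST1 knockout zymogenic cells, all on a C57BL/6 strain background, and each was 1 array made from RNA pooled over several mice. The sources used here do not say how the MIST1 allele was made, what DNA flanks it, or which animals entered which pool. No group has a second array, so the differences below carry no error and no test.

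MIST1 is a basic helix-loop-helix transcription factor, encoded by Bhlha15, that is known for keeping secretory cells such as zymogenic cells in their mature, granule-filled state. Factors of this class bind E-boxes, short DNA motifs of the form CANNTG. Neck cells make mucus in the middle of the gastric gland and are held to be a source of zymogenic cells, which store pepsinogen at its base. The 7 genes belong to no common pathway. Polr2j encodes a small subunit of RNA polymerase II, Aldoc a glycolytic aldolase best known from brain, and Cdo1 cysteine dioxygenase, which oxidises cysteine on the way to taurine. Pik3r5 encodes a regulatory subunit of the class IB PI3-kinase, known from leukocytes, and Gdf9 a growth factor known from oocytes. Stox2 encodes a storkhead box protein with a winged helix domain, and Tmem19 a membrane protein.

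Promoter sequence was looked up because the 7 genes were set against loss of a factor that reads E-boxes. The RefSeq promoter table of build GRCm38.p6 matched 5 of the 7 genes, with 7 windows, and not Gdf9 or Cdo1. Of every window in the table, the 250 bases before the gene start were read. The motif CANNTG, which covers both strands since its reverse complement has the same form, was in 4 of these 7 windows, belonging to 4 genes, against 66.2% of 32851 windows in all. The forms CATATG and CAGCTG were in 0 of the 7 windows, against 3.46% and 13% of all windows. Counted by window, the members' share is not above that of windows at large. Tmem19 and Aldoc had 2 windows each, and those of Tmem19 overlap. Counted by gene, 4 of the 5 matched genes held CANNTG, and no share by gene over all genes was taken. So few windows do not set the members apart either way. The 250 bases are printed for the 2 genes with the largest falls in zymogenic cells and for Aldoc, whose 2 windows held no CANNTG, and 30 bases around the motif for Tmem19 and Stox2. All run 5′ to 3′ on the gene's strand, with CANNTG in capitals.
Polr2j, chr5:136116441-136116690, plus strand: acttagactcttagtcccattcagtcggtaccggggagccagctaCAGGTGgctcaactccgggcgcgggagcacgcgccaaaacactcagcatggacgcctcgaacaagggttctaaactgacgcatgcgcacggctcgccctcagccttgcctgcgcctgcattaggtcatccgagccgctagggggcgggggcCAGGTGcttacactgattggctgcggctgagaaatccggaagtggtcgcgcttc
Pik3r5, chr11:68431875-68432124, plus strand: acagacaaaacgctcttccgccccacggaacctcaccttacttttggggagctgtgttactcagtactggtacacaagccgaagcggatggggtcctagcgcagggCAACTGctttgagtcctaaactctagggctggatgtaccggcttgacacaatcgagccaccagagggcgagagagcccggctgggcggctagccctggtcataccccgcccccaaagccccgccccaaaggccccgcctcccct
Aldoc, chr11:78322823-78323072, plus strand: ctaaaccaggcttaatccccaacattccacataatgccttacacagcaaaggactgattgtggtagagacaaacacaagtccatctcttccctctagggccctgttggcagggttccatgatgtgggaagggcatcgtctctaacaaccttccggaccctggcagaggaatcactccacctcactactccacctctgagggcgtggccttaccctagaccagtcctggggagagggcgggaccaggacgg
Tmem19, chr10:115362522-115362551, minus strand: gcctcgacgagtCACGTGagcggagcaggg
Stox2, chr8:47352563-47352592, minus strand: tgggaactgtgcCAAGTGgatccagggccc
In Polr2j the motif CAGGTG occurred at 205 and again at 54 bases before the start, in Pik3r5 CAACTG at 144, in Tmem19 CACGTG at 38 and in Stox2 CAAGTG at 232. The other window of Tmem19 held none. A match is a description of the letters and not a binding site.

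Levels are array intensities on a linear scale, and differences are log2 values, MIST1-null minus wild-type unless stated. An intensity of 43.7, the median over all probe sets with 1 gene, served as the detection level; it is a convention, since no background was measured. The targeted gene read 59.7 in wild-type neck, 20.2 in MIST1-null neck, 149.8 in wild-type zymogenic and 22 in MIST1-null zymogenic cells. Both MIST1-null values of Bhlha15 were the low ones, which runs the same way as the labels, although it is not known here whether its probes lie in the deleted part. Zymogenic cells were picked as cells below the lectin GS-II signal of neck mucus that lacked the outline of parietal cells. Marker genes matched the labelled cell types in part. Of 6 mucous neck markers, 5 dropped by 2-fold or more from the neck to the zymogenic array, in each genotype. Muc6, the gland mucin of neck cells, had the widest gap of the 6. Muc6 read 2511 and 2980 in wild-type and MIST1-null neck cells, and 26.7 and 20.7 in zymogenic cells. Aqp5 went the other way, with 65.7 and 62.5 in neck and 95.5 and 92 in zymogenic cells. Of 4 detectable zymogenic markers other than Bhlha15, 2 rose by 2-fold or more from the neck to the zymogenic array and 1 dropped, in each genotype. The zymogenic chitinase Chia1 was among those that rose. Pga5, a pepsinogen gene, read 1350 and 1884 in neck cells and 31 and 20.4 in zymogenic cells, against the label. Pgc, another pepsinogen gene, differed little, by 0.20 in wild-type and 0.29 in MIST1-null mice. Lipf was under the detection level in every array. Array medians lay between 37.9 and 40.9. In bulk RNA such as this, fewer cells of a type and less RNA per cell cannot be told apart.

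**Figure D1:**
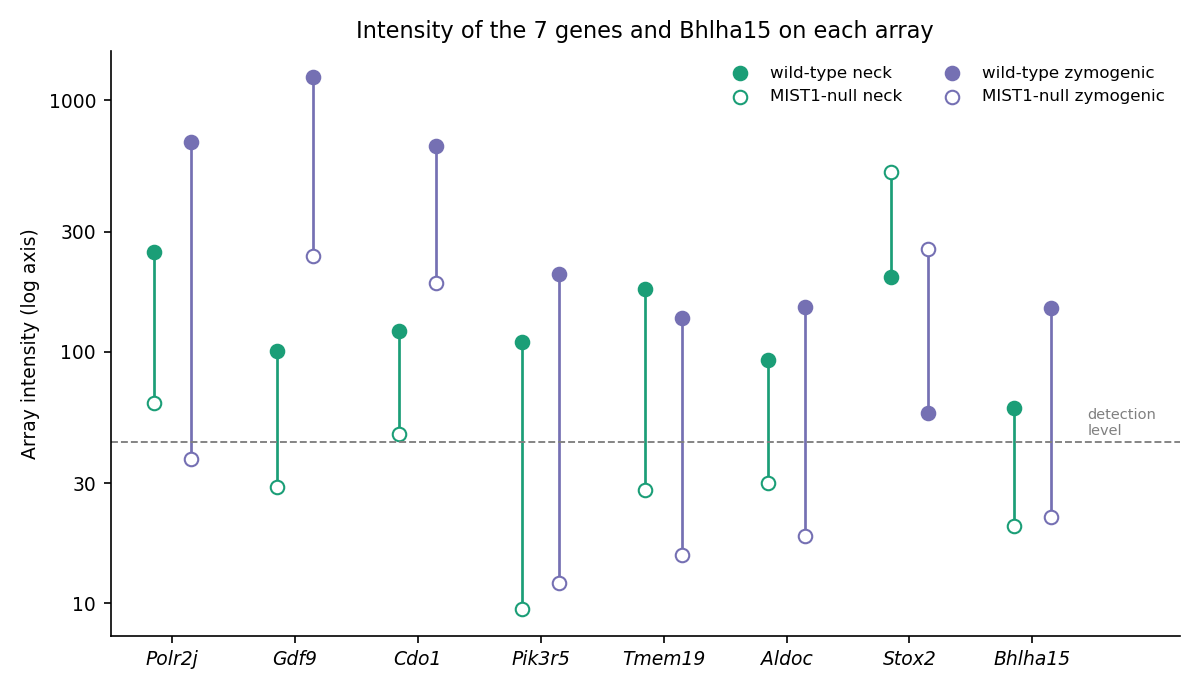
Array intensity (log axis) of the 7 genes and Bhlha15, with neck cells in green and zymogenic cells in purple, wild-type as filled and MIST1-null as open points, 1 array each; the dashed line is the detection level of 43.7. Within each cell type the open point lies below the filled one for 6 genes and Bhlha15 and above it for Stox2.

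Polr2j, the polymerase subunit gene, read 249 in wild-type neck, 62.4 in MIST1-null neck, 680 in wild-type zymogenic and 37.5 in MIST1-null zymogenic cells. Both wild-type arrays were above both MIST1-null arrays, and the null zymogenic value was under the detection level. Its difference was -1.99 in neck cells and -4.18 in zymogenic cells. With the lower value raised to the detection level, the zymogenic difference was -3.96. Taken without that floor, the zymogenic difference was below the neck difference by -2.19, the widest such gap among the 7 genes.

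Pik3r5, the PI3-kinase subunit gene, read 110 and 9.47 in wild-type and MIST1-null neck cells, and 204 and 12.0 in wild-type and MIST1-null zymogenic cells. The null values lay at the very bottom of the arrays, at percentile 1.89 of all genes in neck and 3.96 in zymogenic cells. The differences were -3.53 and -4.08, sizes that are not firm at such levels: with the detection level as floor they were -1.33 and -2.22. Both wild-type values were above both null values.

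Tmem19 read 177 and 28.1 in wild-type and MIST1-null neck cells, and 136 and 15.5 in zymogenic cells. Both null values were under the detection level and below both wild-type values. The differences were -2.66 and -3.13, or -2.02 and -1.63 with the detection level as floor, so that which cell type had the larger one turned with the floor. It was the sole gene of the 6 that fell whose wild-type level was higher in neck than in zymogenic cells.

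Aldoc, the aldolase gene, had the lowest wild-type neck level of the 6 genes, at 93.0 against 30.1 in MIST1-null neck cells. In zymogenic cells it read 150.3 and 18.6. The differences were -1.63 and -3.02, and -1.09 and -1.78 with the detection level as floor. Both null values were again under that level and below both wild-type values.

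Gdf9, the growth factor gene, was high in wild-type zymogenic cells, at 1234, and read 240 in MIST1-null zymogenic cells. In neck cells it read 100.5 in wild-type and 29.1 in MIST1-null mice, so the null zymogenic value was above the wild-type neck value. Its difference was -2.36 in zymogenic cells and -1.79 in neck cells. The zymogenic pair lay wholly above the detection level, at percentiles 99.0 and 92.6 of all genes, so its size did not depend on the floor, while the neck difference was -1.20 with the detection level as floor.

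Cdo1, the cysteine dioxygenase gene, was the only one of the 6 genes at or above the detection level in every array. It read 120 in wild-type and 47.1 in MIST1-null neck cells, and 656 and 187 in zymogenic cells. As for Gdf9, the null zymogenic value lay above the wild-type neck value. The differences were -1.36 and -1.81. With a pseudocount of 32 added before the log, the neck difference was -0.95, under 2-fold.

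Stox2, the storkhead box gene, went the other way. It read 199 in wild-type and 519 in MIST1-null neck cells, and 57.2 in wild-type and 257 in MIST1-null zymogenic cells. Both MIST1-null values were above both wild-type values and all 4 were above the detection level. The differences were 1.39 and 2.17. A second probe set for Stox2 read 23.5 and 33.1 in neck and 23.1 and 25.9 in zymogenic cells, all under the detection level, with differences of 0.49 and 0.17. The mean of both probe sets gave a difference of 0.94 in neck cells, under 2-fold, and of 1.17 in zymogenic cells. The call thus rests on 1 of its 2 probe sets in both cell types. The other 6 genes had 1 probe set each.

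Over the 6 genes that fell, wild-type intensities ran from 93.0 to 1234 and MIST1-null intensities from 9.47 to 240. None of the wild-type values and 8 of the 12 MIST1-null values were under the detection level. With the floor at an intensity of 1, the difference was larger in zymogenic than in neck cells for all 7 genes. The same held for 44 of the 64 genes past the same rule, and for 60% of all 9857 genes detectable in both pairs. These differences chose the 7 genes, so the count is a description. The zymogenic pair was also the wider one over the 9857 genes, with an SD of 0.61 against 0.46 for the neck pair.

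**Figure D2:**
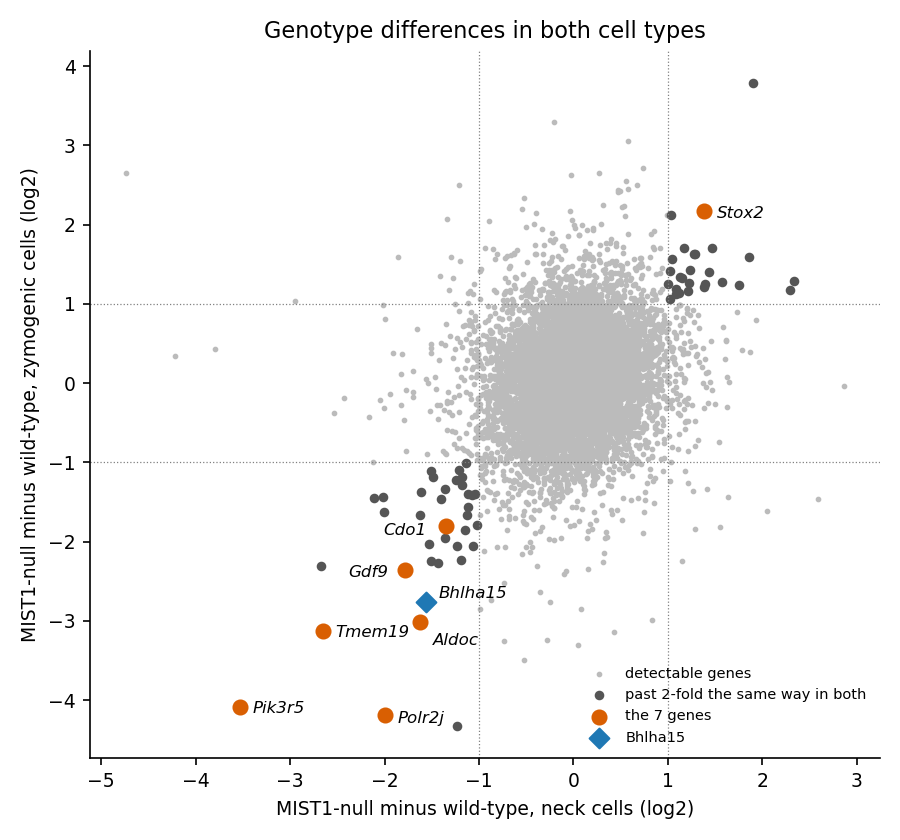
MIST1-null minus wild-type difference (log2) in neck cells (horizontal) and zymogenic cells (vertical) for 9857 detectable genes; dark points passed 2-fold the same way in both, the 7 genes are orange and Bhlha15 is a blue diamond, with dotted lines at 2-fold. Of the 7, Polr2j and Pik3r5 lie farthest down and Stox2 lies at the upper right, at 1.39 and 2.17.

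The 7 genes were not alone in passing the rule. Of the 9857 genes, 37 were at least 2-fold lower in both cell types (0.375%) and 27 at least 2-fold higher (0.274%), 64 in all (0.649%). A further 15 genes were lower in neck and higher in zymogenic cells, and 11 the reverse. The order among the 6 lower genes turned with the floor. By the smaller of the 2 differences it was Pik3r5, Tmem19, Polr2j, Gdf9, Aldoc and Cdo1, and with the detection level as floor it was Polr2j (-1.99), Tmem19 (-1.63), Cdo1 (-1.36), Pik3r5 (-1.33), Gdf9 (-1.20) and Aldoc (-1.09). Just inside the rule lay Wwtr1 (-1.01) and Il10rb (-1.03) among lower and Efhd2 and Sbds (both 1.02) among higher genes. Just outside lay Wdr44 and Cdc42ep3 (both -0.99), Obp2a and Napepld (both 0.99).

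Among genes reaching the 75th percentile in both pairs, 10 other named genes were lower in both. They were Tmed6, of the p24 cargo family of the early secretory pathway, Tmem196, Erich4, the small GTPase gene Rab23, Defb15, the galactosyltransferase gene B3galt4, the phosphatase gene Acp1, the lysosomal protease gene Ctsc, the oocyte linker histone gene H1f8 and the cytokine receptor gene Il10rb. The 10 highest others were the interferon receptor gene Ifnar2, Zfp84, Myef2, Selenoi, Zbtb11os1, the ubiquitin ligase gene Trim37, Abhd18, Slc24a5, the splicing factor gene Cdc40 and Taf1a. Tmed6, with 337 and 83.5 in wild-type and null neck and 1620 and 596 in zymogenic cells, and Acp1, with 1304, 621, 1404 and 527 in the same order, were above the detection level in every array, as was Cdo1.

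The cell type difference within a genotype was not used to choose the genes. It reads the same 4 arrays, whose values entered the choice, so the counts below are not independent of it and are a description. In wild-type mice, 3 of the 7 genes were at least 2-fold higher in zymogenic than in neck cells, against 6.27% of 11778 detectable genes, and 1 was at least 2-fold lower, against 6.78%. Gdf9 differed by 3.62, Cdo1 by 2.45 and Polr2j by 1.45, and Stox2 by -1.80. Pik3r5 (0.89), Aldoc (0.69) and Tmem19 (-0.38) stayed under 2-fold. Bhlha15 itself differed by 1.33.

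In MIST1-null mice, 2 of the 7 genes passed 2-fold upwards from neck to zymogenic cells, against 4.90% of 11322 genes, and 1 was lower, against 4.80%. Gdf9 differed by 3.04 and Cdo1 by 1.99, and Stox2 by -1.01. Gdf9, Cdo1 and Stox2 thus kept a 2-fold cell type difference, of the same sign, in both genotypes, while their level shifted with genotype. Stox2 stood at the limit in MIST1-null mice, with -0.95 under quantile normalization, -0.93 with the pseudocount of 32 and -0.68 as the mean of its probe sets, and the last choice gave -0.91 in wild-type mice. Polr2j changed sign, from 1.45 to -0.73, and Aldoc from 0.69 to -0.70. Pik3r5 (0.34), Tmem19 (-0.86) and Bhlha15 (0.12) were compared at MIST1-null levels that lay under the detection level in both cell types, as were those of Aldoc, so their sign there is not firm. Markers of other cells also differed between the arrays. At least 2-fold higher in zymogenic cells were 4 of 9 detectable endocrine markers in wild-type and 8 of 9 in MIST1-null mice. For fibroblast and smooth muscle markers it was 5 of 8 and 6 of 8, with 0 lower on both lists. Of 10 parietal markers, 5 were lower and 0 higher in wild-type mice, and 1 each way in MIST1-null mice. The part of these cells in the cell type differences was not tested.

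**Figure D3:**
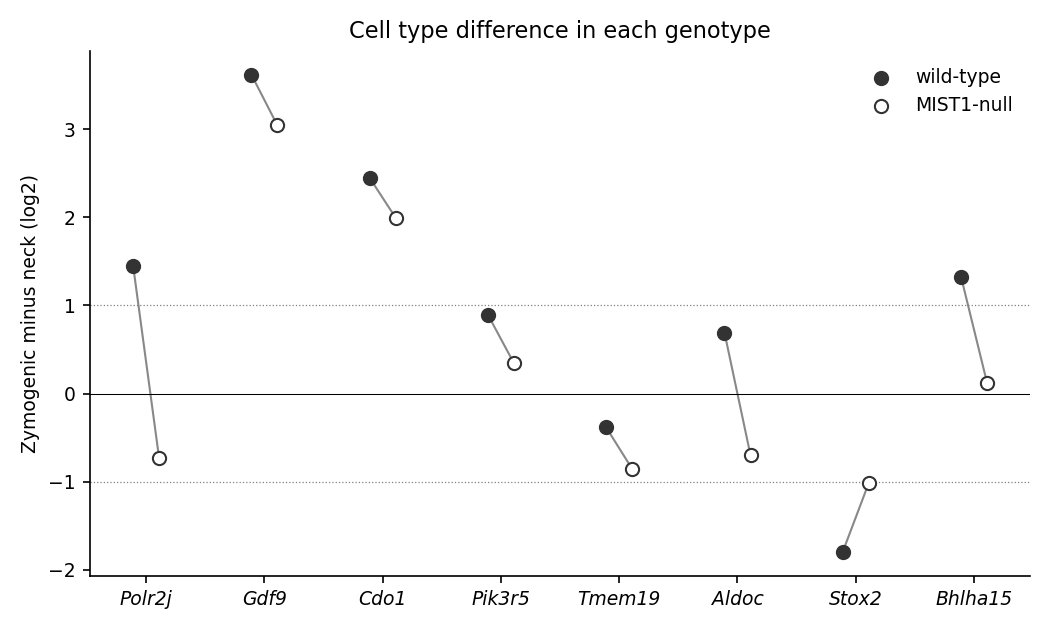
Zymogenic minus neck difference (log2) in wild-type (filled) and MIST1-null (open) mice for the 7 genes and Bhlha15, with dotted lines at 2-fold. Gdf9 and Cdo1 stay high in both genotypes, Stox2 stays low, and Polr2j and Aldoc cross 0.

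Likeness of pattern was measured as the root mean square difference between log2 values over the 4 arrays, each gene centred on its own mean. Polr2j lay nearest to Aldoc (0.47), then Bhlha15 (0.55) and Aass (0.56), the lysine catabolic enzyme gene. Pik3r5 lay nearest to Polr2j (0.56), Tmem19 (0.77) and Aldoc (0.83), and Tmem19 to Aldoc (0.48), Kctd14 (0.58) and Rab23 (0.63). Aldoc had Aass (0.34), Rab23 (0.35) and Erich4 (0.37) as its nearest. Polr2j, Pik3r5, Tmem19 and Aldoc thus lay within 0.83 of each other, and between 1.20 and 2.02 from Gdf9 and Cdo1. The 4 values hold the 2 genotype differences that chose the genes. Closeness among the genes that fell, and to Bhlha15, which passed the same rule, is therefore in part built in and is a description only.

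Gdf9 and Cdo1 shared another pattern, high in zymogenic cells and shifted down by genotype. Gdf9 lay nearest to Tmed6 (0.51), Cdo1 (0.61) and Chil5 (0.67). Cdo1 lay nearest to Nucb2 (0.25), Ifi203 (0.27) and Prom2 (0.30). Stox2 lay nearest to Obp2a (0.14), Emb (0.21) and the sterol synthesis gene Sqle (0.22). With 4 values a gene, many genes lie close to any given one.

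Chromosome position was read from RefSeq assembly GRCm38.p6 as gene order. Bhlha15 lies on chromosome 5, and of the 7 genes only Polr2j shares that chromosome. Gdf9, Pik3r5 and Aldoc lie on chromosome 11, Tmem19 on 10, Stox2 on 8 and Cdo1 on 18. The 3 genes on chromosome 11 were far apart in order, with 201 measured genes between Gdf9 and Pik3r5 and 272 between Pik3r5 and Aldoc. Chromosome 11 held 5 genes past the rule of 868 detectable there (0.576%), close to the 0.649% over all genes, and chromosome 5 held 4 of 598 (0.669%), Bhlha15 among them. Genes past the rule lay on 18 of the 20 chromosomes 1 to 19 and X. The 1 gene past it elsewhere was Srsy, on chromosome Y, which was lower in both pairs (-1.63 and -1.67).

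Polr2j was separated from Bhlha15 by 139 measured genes. Among the 100 measured genes before and the 71 after Bhlha15, up to the end of the chromosome, 90 were detectable in both pairs and 0 passed the rule, against 0.649% overall. Their median difference was 0.01 in neck and 0.08 in zymogenic cells, against 0.01 and 0.07 over all genes. With 200 genes before, 2 of 144 passed, which were Polr2j and Sbds, the latter 195 genes away and higher (1.02 and 1.42). At the background share fewer than 1 gene would pass among the 90, so the count does not set this stretch apart either way. Whether DNA of another strain lies around the targeted gene, and whether a sequence variant lies under the probes of any of the 7 genes, was not tested.

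**Figure D4:**
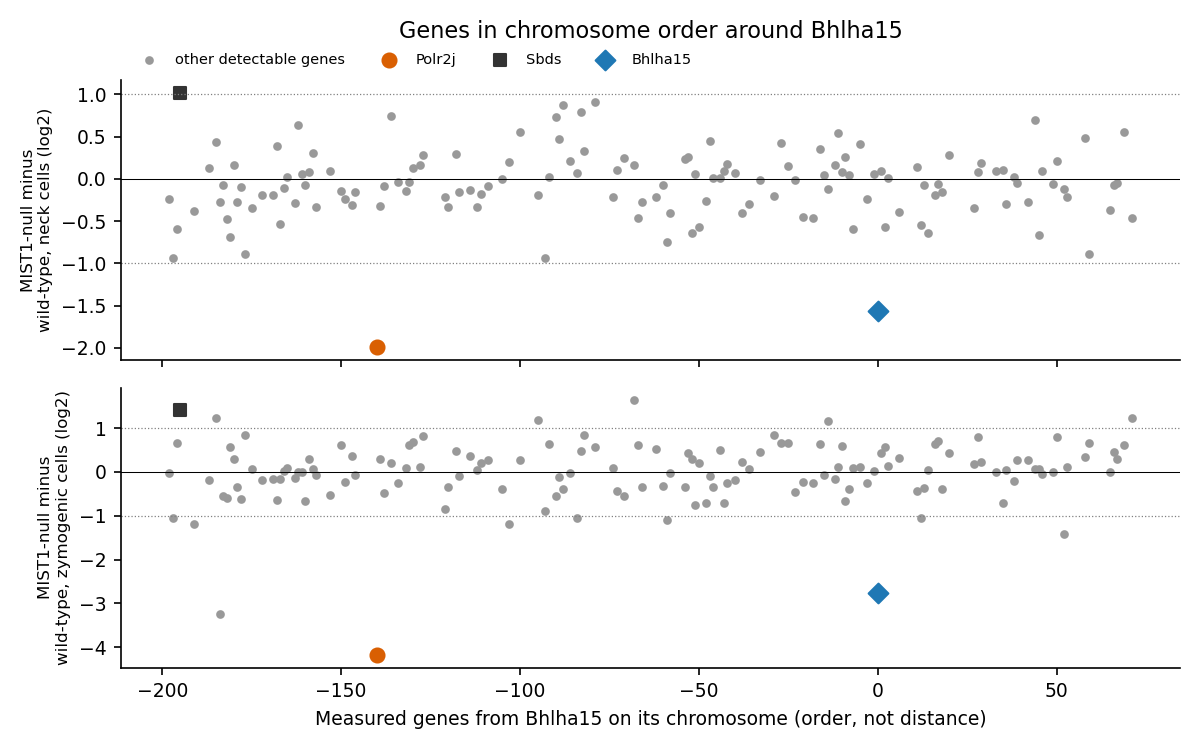
MIST1-null minus wild-type difference (log2) in neck cells (top) and zymogenic cells (bottom) of detectable genes by their order from Bhlha15 on chromosome 5, counted in measured genes. Polr2j (orange), 140 places before Bhlha15 (blue diamond), is low in both panels, and Sbds (black square) is high in both.

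The genes beside each of the 7 were read the same way, 10 on either side. Of 140 such genes, 76 were detectable in both pairs and 0 passed 2-fold the same way in both, against 0.649% overall. Past 2-fold in 1 cell type were 9, or 11.8%, against 11.6% of all detectable genes. Pik3r6, which encodes the other regulatory subunit of the same kinase and is next to Pik3r5, read 30.6 and 32.3 in wild-type and null neck and 33.4 and 25.8 in zymogenic cells, under the detection level throughout. Ntn1, on the other side of Pik3r5, differed by 0.03 and -0.03. Lrwd1, next to Polr2j, differed by -0.32 and 0.31, and Rasa4, on its other side, did not reach the detection level anywhere.

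Uqcrq, next to Gdf9, differed by -0.19 in neck and 0.94 in zymogenic cells, opposite to Gdf9 in the latter, and Shroom1, on its other side, by -0.35 and -0.03. Rab21 and Thap2, beside Tmem19, differed by -0.13 and -0.42 in neck and by 0.84 and 0.22 in zymogenic cells. Pigs, beside Aldoc, differed by -0.03 and 0.40, and Spag5, on its other side, was under the detection level. Eif1a and Atg12, beside Cdo1, were above 0 in both cell types, by 0.31 and 0.12 in neck and 0.95 and 0.49 in zymogenic cells. Trappc11, beside Stox2, differed by 0.50 and 0.61, on the same side as Stox2 but under 2-fold, and Enpp6, on its other side, was under the detection level. Tnfaip8, 9 genes from Cdo1, differed by -0.81 and -2.06, on the same side as Cdo1 and past 2-fold in zymogenic cells. At the background share fewer than 1 of the 76 genes would pass in both pairs, so the count of 0 does not set these neighbours apart.

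**Figure D5:**
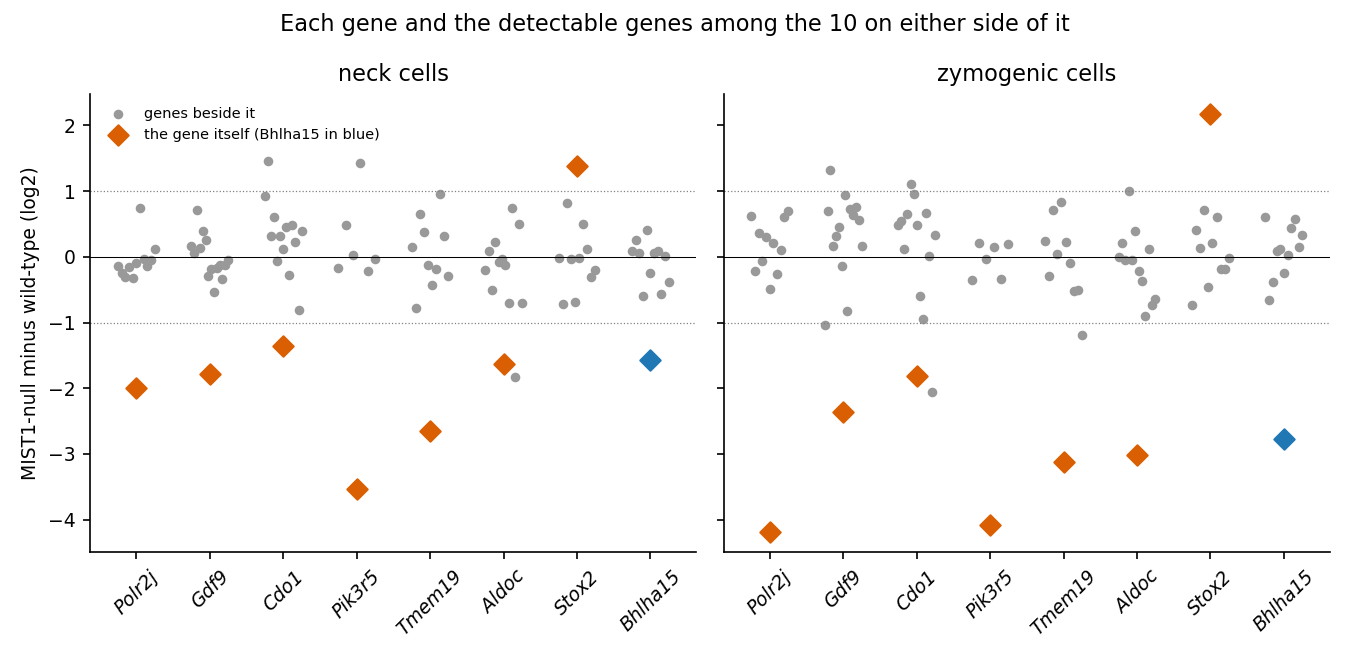
MIST1-null minus wild-type difference (log2) of each of the 7 genes and Bhlha15 (diamonds) and of the detectable genes among the 10 on either side (grey points), in neck cells (left) and zymogenic cells (right), with dotted lines at 2-fold. Grey points gather around 0, and none passes 2-fold the same way in both panels.

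Partners of the 7 genes were read from lists chosen with earlier results of these data known. Polr2j is 1 of 12 RNA polymerase II subunits. Among the 10 others detectable in each pair, 0 passed 2-fold in neck cells, against 2.40% lower and 1.89% higher over all genes, and 1 was higher in zymogenic cells, against 5.23% lower and 5.15% higher. That 1 was the largest subunit gene Polr2a, which read 77.4 and 85.6 in neck and 51.9 and 107 in zymogenic cells, a zymogenic difference of 1.05. The medians of the others were -0.08 and 0.36. No other detectable subunit fell by 2-fold in either cell type. At the shares over all genes fewer than 1 fall would land on this list in each pair, so that count does not set Polr2j apart.

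Of class I PI3-kinase subunits other than Pik3r5, 0 of 5 detectable in neck and 0 of 7 in zymogenic cells passed 2-fold, against 2.40% lower and 1.89% higher over all genes in neck and 5.23% and 5.15% in zymogenic cells. At those shares fewer than 1 call would fall on this list in each pair. Its medians were 0.15 and -0.08. Pik3cg, the catalytic partner of Pik3r5, read 35.7 and 23 in neck and 72.1 and 68.1 in zymogenic cells, a zymogenic difference of -0.08. In zymogenic cells the reading of this partner thus moved little while that of Pik3r5 went from 204 to 12.0.

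Of 10 other glycolytic enzymes detectable in neck and 9 in zymogenic cells, 0 passed 2-fold, with medians of -0.01 and 0.25. The shares over all genes, 2.40% lower and 1.89% higher in neck and 5.23% and 5.15% in zymogenic cells, likewise put fewer than 1 call on this list. Aldoa, the major aldolase of most tissues, read 374 and 380 in neck and 299 and 481 in zymogenic cells, differences of 0.02 and 0.68. Aldoa thus did not follow Aldoc in either cell type.

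Of cysteine and taurine genes other than Cdo1, 0 of 10 and 0 of 9 passed 2-fold, with medians of 0.10 and 0.17, and of the list around GDF9, 0 of 6 and 0 of 7 others, with medians of 0.19 and 0.02. Both counts lay at the shares over all genes, 2.40% lower and 1.89% higher in neck and 5.23% and 5.15% in zymogenic cells. Csad, which acts after Cdo1 towards taurine, differed by -0.65 in neck and -0.31 in zymogenic cells, and Ado, another thiol dioxygenase gene, by 0.56 and 0.43. The oocyte partner ligand gene Bmp15 was under the detection level in every array, from 14.1 to 19.6, while the receptor gene Bmpr2 differed by 0.88 and 0.44. Stox1, the relative of Stox2, was under the detection level in every array.

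Markers of other cells are given beside the 7 genes, with no test. Over all detectable genes, 50.2% were above 0 in neck and 52.9% in zymogenic cells. The lists of stroma, endocrine and mucous neck cells lay on opposite sides of 0 in the 2 cell types. Fibroblast and smooth muscle markers were below 0 in 8 of 8 detectable genes in neck cells (median -0.53) and above 0 in 5 of 8 in zymogenic cells (0.23). Endocrine markers were below 0 in 6 of 7 in neck (-0.44) and above 0 in 7 of 9 in zymogenic cells (0.37). Mucous neck markers were above 0 in 5 of 6 in neck (0.28) and below 0 in 5 of 5 in zymogenic cells (-0.56), where the trefoil gene Tff2 read 1320 in wild-type and 277 in MIST1-null mice. Parietal markers were above 0 in 7 of 10 in neck (0.10) and 8 of 9 in zymogenic cells (1.05). In zymogenic cells 5 of the 9 were at least 2-fold higher in MIST1-null mice, against 5.15% of all genes, and 0 lower. In neck cells 0 of 10 passed 2-fold, against 1.89% higher and 2.40% lower. Leukocyte markers, the cells Pik3r5 is known from, were below 0 in 3 of 4 in neck (-0.38) and 4 of 7 in zymogenic cells (-0.0024), close to the shares over all genes for so few. The summed intensity of the 10 leukocyte markers was 445 and 283 in wild-type and null neck cells and 637 and 556 in zymogenic cells. The leukocyte gene Cd53, with the lowest of all marker values, read 118 and 6.3 in neck but 56.7 and 72.1 in zymogenic cells. Another, Cd74, was lower in both MIST1-null arrays, at 33.4 and 16.4 in neck, under the detection level, and 118.2 and 59.3 in zymogenic cells. The part of these cells in the 7 shifts was not tested.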

How the data were processed

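The authors deposited a linear intensity for each probe set, made with dChip per the series design text. RNA from several dissections and mice was pooled and amplified before labelling, per the labels' protocols. The sources used here do not state the background correction, probe summary or scaling, and give no detection calls, so signal over background is unknown. Precision is limited by the number of arrays, which was 4. The platform annotation gave 1 gene for 21789 of 35512 probe sets, several for 1621 and none for 12102. Genes were named only from the first kind, by the probe set with the highest mean, which gave 19938 genes, of which 19850 had a chromosome in the RefSeq table. That table was used for chromosome and gene order only, and the promoter windows came from a separate RefSeq promoter table. Values were floored at an intensity of 1 and taken as log2. A gene was detectable in a comparison where the higher value reached a log2 of 5.45, and was called at 2-fold. The 7 genes, the lists and the tests were chosen with earlier results of these data known. Named were the 7 genes, Bhlha15, the 10 furthest other genes each way at or above the 75th percentile (a log2 of 6.34) in both pairs, those at the edge of the rule, the 3 most alike per gene, direct neighbours, and list members past 2-fold or sharing a class with one of the 7. Genes within 10 of Cdo1 past 2-fold in 1 cell type were named as well. Predicted, olfactory, vomeronasal and small RNA symbols were counted but not named. The counting was tested on simulated data. Python 3.11.15, numpy 2.4.6, pandas 2.3.3 and matplotlib 3.10.9 were used. Alternatives covered the log scale, the array scaling, the probe set rule, the filter, the fold and the window.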

Additional observations from a re-analysis of the deposited data

Results flagged for a closer look

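The cell type difference of 2 of the 7 genes had opposite signs in the 2 genotypes. Zymogenic minus neck, Polr2j was at 1.45 in wild-type and -0.73 in MIST1-null mice, and Aldoc at 0.69 and -0.70. Each value is 1 array against another, and the difference between genotypes was not tested. Both MIST1-null values of Aldoc and the zymogenic one of Polr2j were under the detection level. With the detection level as floor, Aldoc was at 0.00 and Polr2j at -0.52 in MIST1-null mice.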

How the results depend on the processing

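No paired analysis was possible because each group was 1 array. The number of genes past the fold the same way in both cell types was 64, and was 12 with a pseudocount of 32, 138 with no filter on low values, 32 with the 75th percentile filter, 434 at a fold of 1.5 and 10 at a fold of 3. With a floor at the detection level, an alternative added after the data were seen, it was 29. These changes follow from how each setting treats low values or the fold. All 7 genes were among those called under each of these settings except the pseudocount (6, without Cdo1) and the fold of 3 (5, without Cdo1 and Stox2). The mean over probe sets called 60 genes, with 6 of the 7, without Stox2. Quantile normalization called 64 and median centring 66, each with all 7. Beside Bhlha15 the count went from 0 to 2 at a fold of 1.5 and to 2 with the window widened to 200 genes before and 71 after it, and was 0 under the other alternatives run. In neck cells, 2 of the 35 alternative values of the 7 genes fell under 2-fold, Cdo1 at -0.95 with the pseudocount and Stox2 at 0.94 as the mean of its probe sets. In zymogenic cells 0 of 35 did. Not all 35 values were free to move. The probe set mean repeats the main value for the 6 genes with 1 probe set, and the detection floor leaves a pair above it unchanged. Under the alternatives run, no difference of the 7 genes past 2-fold changed sign. The pseudocount and the floor cannot reverse a sign, and the probe set mean could do so for Stox2 alone, so this says little. Signal over background is unknown, which limits the 8 MIST1-null values under the detection level most.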
